A study of Mus musculus with 8 samples.

Results

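Amino acid transporters carry amino acids across the plasma membrane and the membrane of lysosomes, and the genes described here are the rows of the count table whose symbols belong to the families Slc1, Slc3, Slc6, Slc7, Slc36, Slc38 and Slc43. The rule found 66 of the 24557 genes listed. Of these, 63 encode carriers or their partner chains, and 3 (Slc36a1os, Slc6a19os and Slc7a6os) are genes of the opposite strand that the symbols also match and are no transporters. The Slc6 family also holds carriers of neurotransmitters, creatine and taurine, which were kept because the rule takes them.

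The libraries came from exorbital lacrimal glands (LGs) of female C57BL/6J mice. One group of 4 mice was fed ad libitum (AL), and the other group of 4 was on 40% calorie restriction (CR) for 4 months, starting at 6 to 7 months of age and ending at 10 to 11 months. Per the study's methods, restriction was stepped up over the first weeks and CR mice received their food once a day, just before the dark phase, while AL mice could eat at any hour. The study ran CR in more than one cohort with different chows, and in one of them the restricted chow was enriched in vitamins and micronutrients. The labels do not say which cohort gave these glands or at what hour they were taken.

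A secretory gland makes large amounts of protein for export and takes up the amino acids for it from the blood. Sodium-coupled carriers of the Slc1, Slc6 and Slc38 families concentrate amino acids in the cell, and exchangers of the Slc7 family swap one amino acid for another. Many Slc7 proteins are light chains that reach the cell surface only when bonded to a heavy chain of the Slc3 family. Slc43 proteins let large neutral amino acids pass down their gradient, and Slc36 proteins move small ones together with protons, partly out of lysosomes. In many cell types a shortage of amino acids acts through the transcription factor ATF4, whose known targets include several of these carriers.

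The libraries held between 12051881 and 22156511 counts, and 11211 genes passed the filter on low counts and were tested. The level of a gene is given as CPM, its read count scaled to the size of its library, and the floor of 3 counts lay at 0.152 to 0.231 CPM in the single libraries. The reads lie near the 3' ends of transcripts, so levels were not divided by gene length and are compared here between libraries and not between genes. Markers of the LG were abundant in all libraries, with a summed level of 8 marker genes between 241172 and 284540 CPM in AL and between 147965 and 253456 CPM in CR. Transcripts known from the parotid salivary gland differed between the diets. All 6 listed parotid genes had an unadjusted p under 0.05 and a higher mean in CR, 3 of them were called, and their summed level was 23502, 12715, 9852 and 237 CPM in AL replicates 1 to 4 and 211283, 230419, 183591 and 17896 CPM in CR replicates 1 to 4. None of the 6 was at 0 in all libraries, though Prh1 and Prp2 were at 0 in AL replicates 2 and 4. The 8 white adipose genes summed to between 9.55 and 20.2 CPM in AL and between 25.2 and 103 CPM in CR, with 5 of the 6 tested at an unadjusted p under 0.05 and higher and Lep, which encodes leptin, at 0 in the AL libraries. The 8 macrophage genes summed to between 94.3 and 254 CPM in AL and between 58.7 and 111 CPM in CR, and 6 of them had an unadjusted p under 0.05 and a lower mean in CR. The 5 nerve and glia genes summed to between 15.0 and 20.7 CPM in AL and between 29.2 and 93.9 CPM in CR, all 5 had a log2 fold change above 0, and Sox10 was called higher. Of the other lists, B cell genes summed to between 1.73 and 10.6 CPM in AL and between 0.424 and 1.11 CPM in CR, and by unadjusted p under 0.05, 3 of 4 tested plasma cell genes and 2 of 5 fibroblast genes were lower and 2 of 4 tested skeletal muscle genes higher. In RNA of a whole gland, fewer cells of a type and less RNA per cell cannot be told apart.

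Of the 66 genes, 29 were counted often enough to be tested, 28 of them transporters. By edgeR's quasi-likelihood fit of diet alone to all libraries, 2 members were called, Slc7a2 and Slc43a1. Both were higher in CR at the thresholds of the study (fold of 1.5 or more and adjusted p below 0.05). These 2 genes are 6.90% of the members tested, while 1.20% of all genes tested were called higher and 1.98% in either direction. No member was called lower by edgeR's quasi-likelihood fit of diet alone to all libraries, as were 0.785% of all genes. DESeq2, the tool the study used for its p-values, called the same 2 genes higher and also called 1 lower, Slc7a6. Some further fits called Slc7a6 as well, and single fits added Slc7a5 or Slc7a4 as higher. Without the fold threshold and with unadjusted p below 0.05, 5 members were higher and 5 lower, or 17.2% of the members in each direction, against 8.62% and 8.10% of all genes. The median log2 fold change of the 29 members was 0.08, beside 0.01 over all genes tested, and single members ranged from -1.49 to 2.51. The estimates lay on both sides, 16 above 0 and 13 below it.

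**Figure D1:**
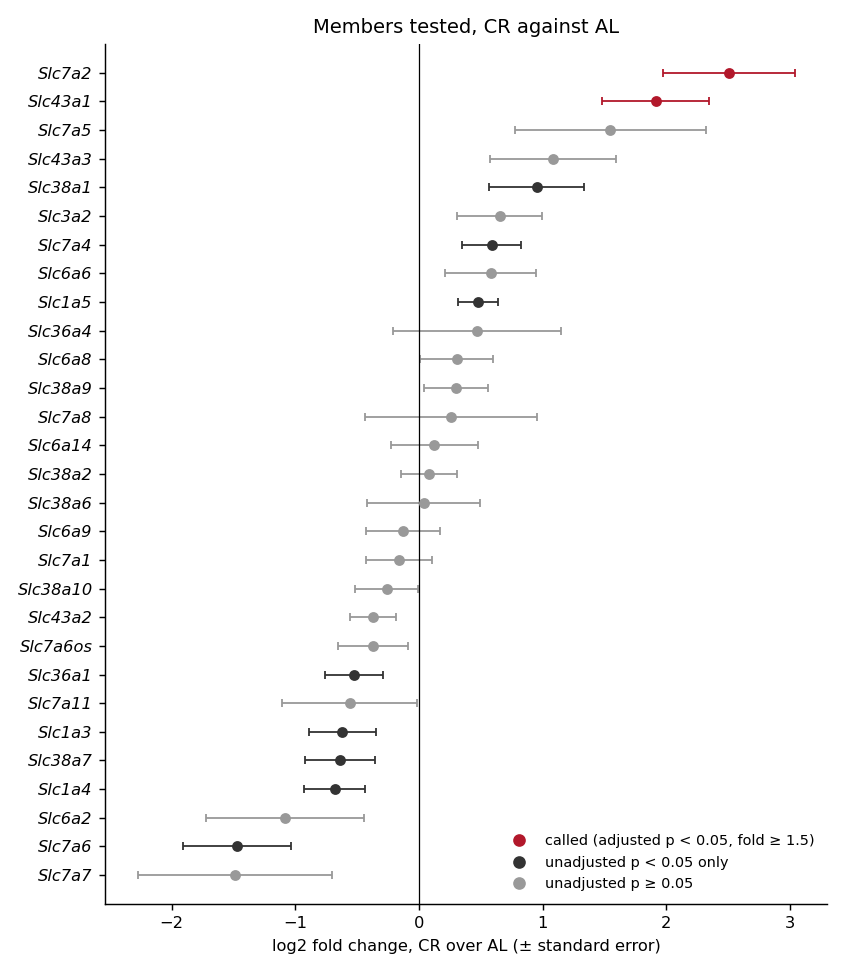
Log2 fold change of CR over AL (horizontal axis) for the 29 members tested (vertical axis), with points at edgeR's estimate and bars of 1 standard error. Slc7a2 at 2.51 and Slc43a1 at 1.91 are the called members, and the lowest estimates are those of Slc7a7 and Slc7a6 at -1.49 and -1.47.

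Among the carriers of cationic amino acids, Slc7a2 had the largest rise. It encodes a sodium-independent carrier of arginine, lysine and ornithine. Slc7a2 (Gene ID 11988) spans chromosome 8 from 40862396 to 40922308 in GRCm38, which is also called mm10. It was counted at 1.23, 0.920, 0.802 and 0.812 CPM in the AL libraries (replicates 1 to 4) and 4.46, 10.5, 5.08 and 1.39 CPM in the CR libraries, that is 11 to 16 reads in an AL library and 25 to 178 in a CR library. Every CR library was above every AL library, with CR replicate 2 far above the rest and CR replicate 4 just above the AL range. Means were 0.942 ± 0.201 CPM in AL and 5.37 ± 3.81 CPM in CR (mean ± SD, n = 4 each), a 5.69-fold rise with a log2 fold change of 2.51 (standard error, SE, 0.53, adjusted p = 0.0345, edgeR quasi-likelihood with Benjamini-Hochberg adjustment). Separation upward, without overlap, was seen in 3 members (10.3%) and in 4.58% of all genes tested, and separation in either direction in 5 members (17.2%) and 9.79% of all genes.

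Slc43a1, which encodes a facilitative carrier of branched-chain and other large neutral amino acids, rose as well. The gene (Gene ID 72401) spans chromosome 2 from 84838850 to 84863594 in GRCm38. Its level was 0.848, 1.90, 1.31 and 1.17 CPM in the AL libraries (replicates 1 to 4) and 4.81, 7.88, 5.14 and 2.05 CPM in the CR libraries. These were 11 to 31 reads in an AL library and 37 to 133 in a CR library. The CR libraries again lay above all AL libraries, and again CR replicate 2 was the highest and CR replicate 4 the lowest of them. The means of 1.31 ± 0.441 and 4.97 ± 2.38 CPM (mean ± SD, n = 4 each) gave a 3.77-fold rise, or a log2 difference of 1.91 (SE 0.43, edgeR quasi-likelihood adjusted p = 0.0451). No exon of another gene overlaps Slc43a1 in the annotation, while exons of Slc7a2 overlap the gene Gm26584 on the other strand. For both genes, no stretch of 75 bases near the 3' end is shared with another gene.

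Both calls were close to the threshold. Leaving out any library other than CR replicate 4 ended both calls, with log2 fold changes over these 7 fits between 1.95 and 2.66 for Slc7a2 and between 1.61 and 2.15 for Slc43a1. Upper-quartile scaling ended the call of Slc43a1 (adjusted p = 0.0512, edgeR quasi-likelihood) and limma voom with quality weights that of Slc7a2 (adjusted p = 0.0564). Without CR replicate 4 the log2 fold changes were 2.83 and 2.17 and both genes were called (edgeR quasi-likelihood adjusted p = 0.00161 and 0.00503). Among the CR libraries, replicate 4 was lowest and replicate 2 highest both in these genes and in the parotid transcripts, while replicate 1 had more parotid RNA than replicate 3 and less of both genes. Among the AL libraries, replicate 1 had the most parotid RNA and Slc7a2 and the least Slc43a1. When the mean log2 level of the parotid genes was added to the model, Slc7a2 had an estimate of 0.57 and Slc43a1 of 0.87, and neither was called. That mean ran from 2.42 to 7.07 in AL and from 9.15 to 12.9 in CR, without overlap. Diet and this covariate are thus confounded in these libraries and cannot be told apart. This holds for every estimate given with the parotid covariate, and the part of parotid RNA was not tested.

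**Figure D2:**
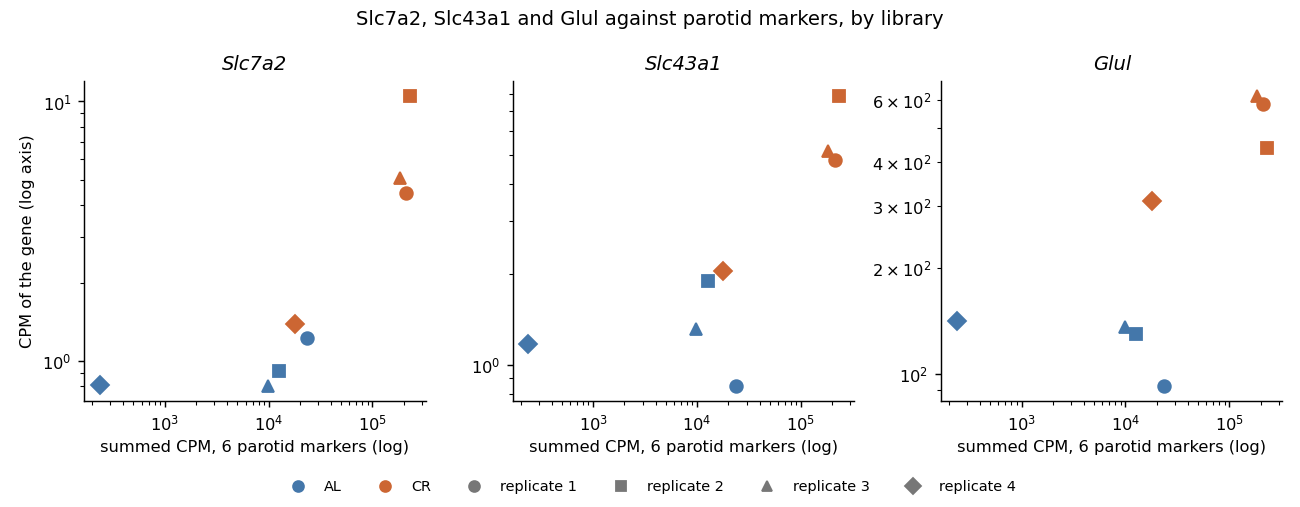
Level of Slc7a2, Slc43a1 and Glul (vertical axes, CPM, log scale) against the summed level of 6 parotid transcripts (horizontal axes, CPM, log scale), with 1 point per library, color for diet and shape for replicate number. For Slc7a2 and Slc43a1, CR replicate 4 at 1.39 and 2.05 CPM lies close to the AL libraries, while for Glul it lies at 311 CPM, above the AL maximum of 141 CPM.

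Promoter windows of 5 of the 6 tested members with a motif match are shown, without that of Slc7a7 and those of members too rare to test, because feeding time and amino acid supply are both known to act through DNA elements upstream of genes. The windows come from RefSeq on GRCm38.p6, which held 250 bases before and 50 after the start of 48 of the members, 20 of them tested, and 150 bases before the start and 10 after it are printed. No window was held for the called member Slc7a2, nor for Slc7a5, Slc1a5, Slc38a1 and Slc7a4 among others, so these genes were not searched. Searched on both strands were CACGTG, the E-box that clock transcription factors and MYC-like factors bind, and TGATGNAA, the core of the amino acid response element bound by ATF4. Capitals mark the matches, no matches of the motifs overlapped each other, and the strand given is that of the gene.
Slc43a1 (chr2:84840173-84840332, plus strand): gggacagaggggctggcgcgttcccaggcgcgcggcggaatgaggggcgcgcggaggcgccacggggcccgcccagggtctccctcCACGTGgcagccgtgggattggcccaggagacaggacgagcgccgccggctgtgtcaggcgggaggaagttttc
Slc36a1 (chr11:55204190-55204349, plus strand): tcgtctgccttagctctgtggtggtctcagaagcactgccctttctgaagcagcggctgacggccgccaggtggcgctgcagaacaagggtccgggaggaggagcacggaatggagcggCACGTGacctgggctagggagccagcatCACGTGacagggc
Slc38a7 (chr8:95853482-95853641, minus strand): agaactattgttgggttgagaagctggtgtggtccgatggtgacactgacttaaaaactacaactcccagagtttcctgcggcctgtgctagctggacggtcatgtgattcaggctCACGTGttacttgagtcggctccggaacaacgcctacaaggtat
Slc1a4 (chr11:20332704-20332863, minus strand): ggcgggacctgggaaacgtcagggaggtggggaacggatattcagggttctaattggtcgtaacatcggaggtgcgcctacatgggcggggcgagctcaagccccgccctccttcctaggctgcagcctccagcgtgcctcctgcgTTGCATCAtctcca
Slc7a11 (chr3:50443604-50443763, minus strand): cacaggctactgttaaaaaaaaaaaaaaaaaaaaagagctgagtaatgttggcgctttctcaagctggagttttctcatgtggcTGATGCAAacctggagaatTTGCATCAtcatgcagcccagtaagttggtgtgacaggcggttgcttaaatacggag
The E-box stood 64 bases before the RefSeq start of Slc43a1, 34 before that of Slc38a7, and 31 and 3 before that of Slc36a1. The window of Slc43a1 lies within the span given above for the gene, which begins at 84838850. The start used for Slc43a1 is therefore not the first one annotated. It was found in 3 of the 20 tested members with a promoter, and in 8.09% of 27025 genes with one. The response element was found in Slc1a4, Slc7a11 and Slc7a7, again 3 of 20, against 4.51% of all genes. In Slc7a11, which encodes the light chain of the cystine and glutamate exchanger, the matches began 66 and 47 bases before the start, in opposite orientations. These matches describe the letters of the windows and were not tested against the changes in level.

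**Figure D3:**
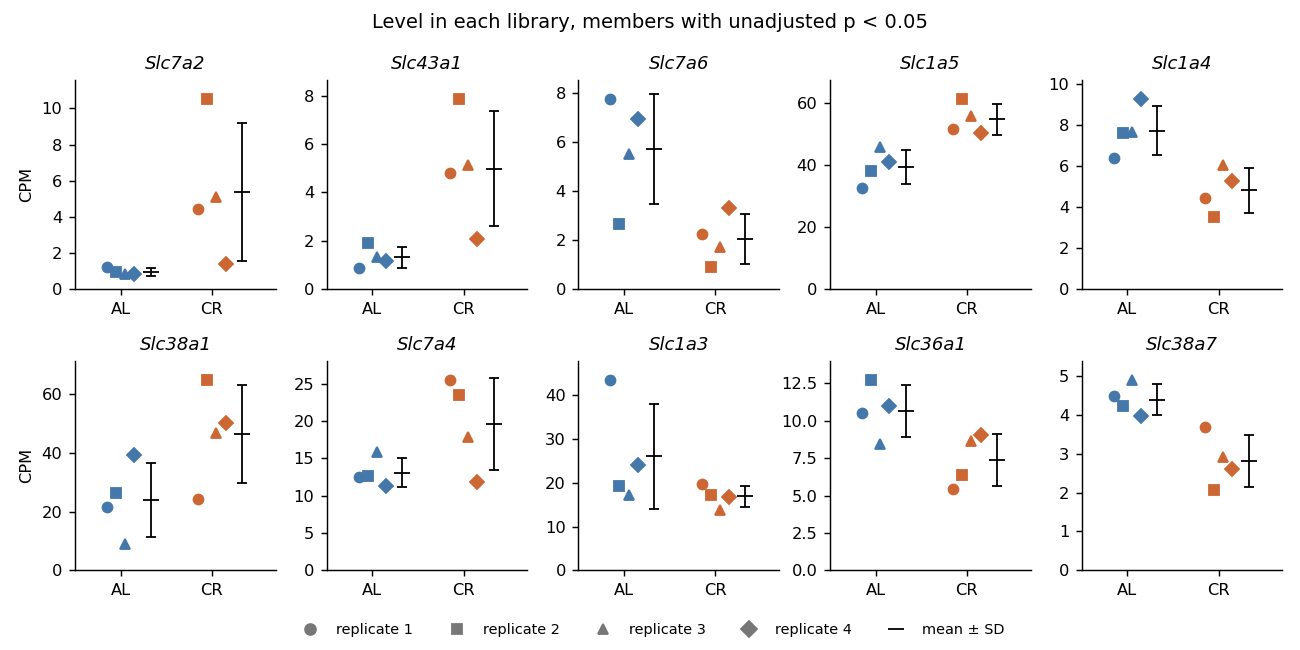
Level in each library (vertical axes, CPM from 0) of the 10 members with an unadjusted p under 0.05, for AL and CR (horizontal axes), with the shape of a point for the replicate number and the bar for mean ± SD (n = 4 each). The diets do not overlap for Slc7a2, Slc43a1, Slc1a5, Slc1a4 and Slc38a7.

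The other carriers of the cationic branch did not pass the test. Slc7a1, the widespread arginine and lysine carrier, averaged 39.4 ± 10.6 CPM with AL and 35.3 ± 12.2 CPM with CR (mean ± SD, n = 4 each), with an estimated log2 difference of -0.16 (SE 0.27, edgeR quasi-likelihood adjusted p = 0.833). Leaving out 1 library moved this estimate from -0.35 (without CR replicate 4) to just above 0 (without AL replicate 4 or CR replicate 1). Slc7a4, a relative whose transport function is less clear, was counted at 12.6, 12.6, 15.8 and 11.3 CPM in the AL libraries (replicates 1 to 4) and 25.5, 23.5, 17.9 and 11.8 CPM in the CR libraries. CR replicates 1, 2 and 3 exceeded all AL libraries and CR replicate 4 lay within their range. Its log2 fold change was 0.59 (adjusted p = 0.235, edgeR quasi-likelihood), and it was called without CR replicate 4 (log2 fold change 0.77, adjusted p = 0.0424, edgeR quasi-likelihood). With the parotid covariate its log2 fold change was -0.23, and its exons overlap those of P2rx6 on the other strand. Slc7a3 had 1 read in all libraries together and Slc7a14 had 4.

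Of the heavy chains, Slc3a2 was the member with the most counts and Slc3a1, the partner of kidney and intestinal light chains, had 17 reads in all. The level of Slc3a2 (Gene ID 17254, chromosome 19 from 8706882 to 8723369) was 97.0, 162, 74.0 and 179 CPM in the AL libraries (replicates 1 to 4) and 107, 195, 185 and 321 CPM in the CR libraries. The groups overlapped, since CR replicate 1 lay below AL replicates 2 and 4. The estimate for Slc3a2 was 0.65 on the log2 scale (SE 0.34, adjusted p = 0.377, edgeR quasi-likelihood), and 0.34 without CR replicate 4. Slc7a5 encodes the light chain that with Slc3a2 takes up leucine and other large neutral amino acids. It was counted at 7.40, 11.4, 5.17 and 37.9 CPM in the AL libraries (replicates 1 to 4) and 6.51, 28.2, 25.1 and 123 CPM in the CR libraries. The ratio of the highest to the lowest library was the largest among members with a mean above 10 CPM, and CR replicate 4 stood far above the other libraries. The log2 fold change of 1.55 had a standard error of 0.77 and was not called (edgeR quasi-likelihood adjusted p = 0.345), and it was 0.35 without CR replicate 4 and 2.51 without AL replicate 4. The libraries with the most Slc7a5, replicate 4 of each diet, were also those with the most Slc3a2 within their diet, and AL replicate 3 was the lowest library for both genes. With the parotid covariate the log2 estimates were 1.78 for Slc3a2 and 4.77 for Slc7a5, and neither was called.

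**Figure D4:**
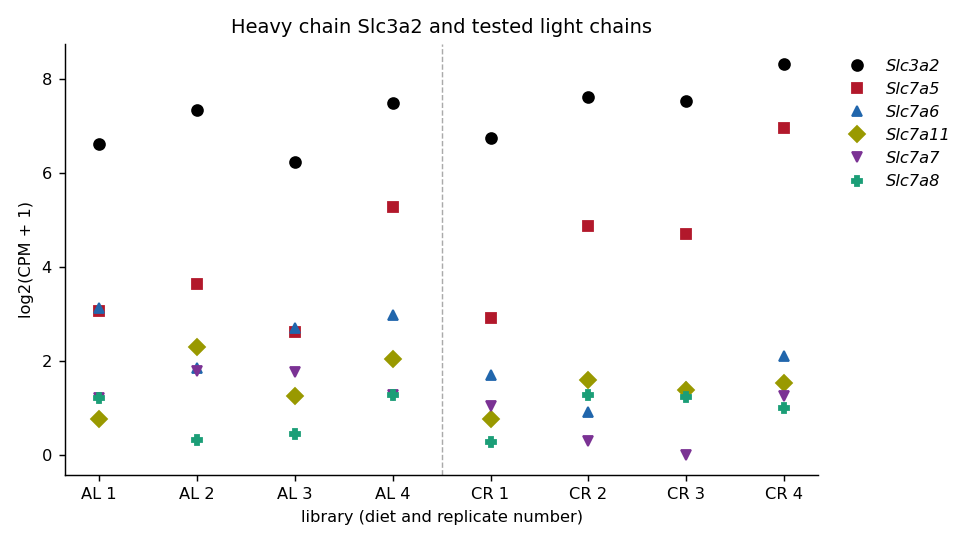
Level of the heavy chain gene Slc3a2 and the 5 tested light chain genes (vertical axis, log2(CPM + 1)) in each of the 8 libraries (horizontal axis), with AL left and CR right of the dashed line. Slc7a5 and Slc3a2 are highest in CR replicate 4, at 123 and 321 CPM, while Slc7a7 is at 0 in CR replicate 3.

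Slc7a6 and Slc7a7 encode light chains that exchange cationic for neutral amino acids, and Slc7a7 is known from macrophages and from kidney and gut epithelium. Slc7a6 (Gene ID 330836) was counted at 7.78, 2.64, 5.54 and 6.95 CPM in the AL libraries (replicates 1 to 4) and 2.26, 0.888, 1.73 and 3.33 CPM in the CR libraries. Only AL replicate 2 fell within the CR range. The means of 5.73 ± 2.26 and 2.05 ± 1.02 CPM (mean ± SD, n = 4 each) gave a log2 fold change of -1.47 (SE 0.43, edgeR quasi-likelihood adjusted p = 0.107), the smallest p among the members below 0. It was not called by edgeR's fit of diet alone to all libraries, and was called by other fits, among them DESeq2 (adjusted p = 0.0211) and edgeR without CR replicate 4 (adjusted p = 0.0330). Slc7a6os, its neighbor on the opposite strand, had a log2 fold change of -0.37 (adjusted p = 0.576, edgeR quasi-likelihood), and the exons of the genes do not overlap.

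Slc7a7 had 1.31, 2.45, 2.40 and 1.42 CPM in the AL libraries (replicates 1 to 4) and 1.06, 0.237, 0 and 1.39 CPM in the CR libraries. It was rarely counted, with 17 to 40 reads in an AL library and 0 to 25 in a CR library, and its log2 fold change of -1.49 (SE 0.78) was not called (edgeR quasi-likelihood adjusted p = 0.380). Leaving out 1 library moved the estimate of Slc7a7 between -2.15 (without CR replicate 4) and -1.07 (without CR replicate 3). With limma voom and quality weights it was -3.05, also not called (adjusted p = 0.102). Its exons overlap those of Oxa1l on the other strand. Of the macrophage markers, 6 of 8 had lower means at an unadjusted p under 0.05 in the same comparison, as given above, and their part in these values was not tested. Slc7a11 and Slc7a8, a light chain for neutral amino acids, had log2 fold changes of -0.56 and 0.26 with standard errors of 0.54 and 0.69. Neither was called (adjusted p = 0.675 and 0.908, edgeR quasi-likelihood), and leaving out 1 library moved Slc7a11 between -0.85 (without AL replicate 1) and -0.18 (without AL replicate 2) and Slc7a8 between -0.05 (without AL replicate 2) and 0.66 (without AL replicate 4). Slc7a9, Slc7a12 and Slc7a15 had no reads, and Slc7a13 had 1.

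In the Slc1 family, the neutral amino acid exchangers Slc1a5 and Slc1a4 had estimates of opposite sign, each without overlap between the diets, and neither was called. Slc1a5, which carries glutamine, was counted at 32.5, 38.2, 45.8 and 40.8 CPM in the AL libraries (replicates 1 to 4) and 51.6, 61.4, 55.8 and 50.4 CPM in the CR libraries. All CR libraries were above all AL libraries, with means of 39.3 ± 5.52 and 54.8 ± 4.99 CPM (mean ± SD, n = 4 each). The log2 fold change was 0.48 (SE 0.16), a 1.39-fold difference, and the adjusted p of edgeR's quasi-likelihood test was 0.152. Slc1a4, which carries alanine, serine and cysteine, had 6.40, 7.61, 7.65 and 9.28 CPM in the AL libraries (replicates 1 to 4) and 4.46, 3.49, 6.07 and 5.28 CPM in the CR libraries. Every CR library was below every AL library, as in 2 members (6.90%) and 5.20% of all genes tested. Its log2 fold change was -0.68 (SE 0.25, edgeR quasi-likelihood adjusted p = 0.181), and 0.09 with the parotid covariate.

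Slc1a3, a glutamate carrier known from glia, was counted at 43.4, 19.3, 17.2 and 24.2 CPM in the AL libraries (replicates 1 to 4) and 19.7, 17.2, 13.9 and 16.8 CPM in the CR libraries. AL replicate 1 stood above the rest and AL replicates 2 and 3 lay within the CR range. The log2 fold change of -0.62 was not called (adjusted p = 0.273, edgeR quasi-likelihood), and without AL replicate 1 it was -0.25. The nerve and glia genes, given above, were higher in CR in sum, and their part in these values was not tested. The glutamate carriers Slc1a1 and Slc1a2, with 67 and 17 reads, and Slc1a6, with 7, were too rare to test, and Slc1a7 had none.

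The sodium-coupled Slc38 carriers were counted in 10 of 11 cases, and 6 were tested. Slc38a2, the glutamine and alanine carrier that cells increase when amino acids are scarce, had 48.3, 67.3, 71.1 and 107 CPM in the AL libraries (replicates 1 to 4) and 74.9, 67.5, 77.0 and 91.2 CPM in the CR libraries. Its groups overlapped fully, with means of 73.4 ± 24.4 and 77.7 ± 9.93 CPM (mean ± SD, n = 4 each) and a log2 difference of 0.08 (SE 0.23, edgeR quasi-likelihood adjusted p = 0.912), and of 1.09, not called, with the parotid covariate. Leaving out 1 library moved it between -0.07 (without AL replicate 1) and 0.32 (without AL replicate 4). Slc38a1, a glutamine carrier of the same kind, had 21.7, 26.3, 8.96 and 39.3 CPM in the AL libraries (replicates 1 to 4) and 24.5, 64.8, 46.9 and 50.1 CPM in the CR libraries. CR replicates 2, 3 and 4 exceeded all AL libraries and CR replicate 1 did not. Its log2 fold change of 0.95 (SE 0.38) was not called (adjusted p = 0.226, edgeR quasi-likelihood).

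Slc38a7 and Slc38a9 act at the lysosome, the former as a glutamine carrier and the latter as an arginine-sensing carrier upstream of the growth kinase mTOR. Slc38a7 was counted at 4.47, 4.23, 4.88 and 3.96 CPM in the AL libraries (replicates 1 to 4) and 3.68, 2.07, 2.91 and 2.61 CPM in the CR libraries. The CR libraries lay below the AL libraries without overlap, by a small margin between CR replicate 1 and AL replicate 4. The log2 fold change was -0.64 (SE 0.29, edgeR quasi-likelihood adjusted p = 0.283). Slc38a9 had a log2 fold change of 0.30 (adjusted p = 0.627, edgeR quasi-likelihood). Slc38a10 averaged 42.2 ± 9.39 CPM with AL and 35.2 ± 13.5 CPM with CR (mean ± SD, n = 4 each), and Slc38a6, which shares 13.24% of its 75-base stretches with other genes, had a log2 fold change of 0.04. The log2 fold change of Slc38a10 was -0.26, and -0.56 without CR replicate 4 and -0.12 without CR replicate 3. Neither gene was called (adjusted p = 0.680 and 0.983, edgeR quasi-likelihood).

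The proton-coupled carrier Slc36a1, found at the plasma membrane and in lysosomes, had 10.5, 12.7, 8.45 and 11.0 CPM in the AL libraries (replicates 1 to 4) and 5.45, 6.39, 8.67 and 9.05 CPM in the CR libraries. CR replicates 1 and 2 lay below all AL libraries and the groups overlapped (log2 fold change -0.53, standard error 0.23, edgeR quasi-likelihood adjusted p = 0.276). With the parotid covariate its estimate was -0.06. Slc36a4 was at most 0.867 CPM. Within Slc43, Slc43a2, a close relative of Slc43a1 with similar substrates, had 39.0, 31.7, 32.7 and 31.8 CPM in the AL libraries (replicates 1 to 4) and 21.4, 34.3, 22.1 and 26.7 CPM in the CR libraries. Its log2 fold change was -0.37 (SE 0.19) and not called (adjusted p = 0.353, edgeR quasi-likelihood). The called member and its relative thus had estimates of opposite sign, and the difference between them was not tested. For Slc43a3, described as a carrier of purine bases, the log2 estimate was 1.09 (SE 0.51, edgeR quasi-likelihood adjusted p = 0.312).

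Of the Slc6 genes 5 were tested, 2 of 10 amino acid carriers and 3 of 10 carriers of neurotransmitters, creatine and taurine, and none of these 5 was called. Slc6a6, which carries taurine, had 12.8, 24.7, 25.4 and 38.5 CPM in the AL libraries (replicates 1 to 4) and 22.8, 31.1, 29.2 and 68.5 CPM in the CR libraries. CR replicate 4 was the highest library, as for Slc7a5, and the log2 fold change of 0.58 (SE 0.37) was 0.13 without it and 2.17 with the parotid covariate, not called in any of these fits (adjusted p = 0.475 with all libraries, edgeR quasi-likelihood). The creatine carrier Slc6a8, the glycine carrier Slc6a9 and the broad neutral and cationic carrier Slc6a14 had log2 fold changes of 0.30, -0.13 and 0.12. Their adjusted p-values in edgeR's quasi-likelihood test were 0.673, 0.890 and 0.915. For Slc6a9 the estimate was -0.54 without CR replicate 3 and 0.05 without CR replicate 1. Slc6a2, the noradrenaline carrier of sympathetic nerves, was counted at 0.118 to 1.31 CPM and had a log2 fold change of -1.09 (edgeR quasi-likelihood adjusted p = 0.441). The gut and kidney carriers Slc6a18, Slc6a19 and Slc6a20b and the nerve carriers Slc6a3, Slc6a5 and Slc6a7 had no reads in any library.

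The 9 members known as ATF4 targets had estimates in both directions. Of the 8 tested, 4 had a log2 fold change above 0 and 4 below, with a median of -0.02, and none was called by edgeR's fit of diet alone. Among 30 other genes of the amino acid response 27 were tested, with a median log2 fold change of 0.13, 2 called higher and 1 called lower, and with 9 higher and 3 lower by unadjusted p below 0.05. Over all genes tested these shares were 1.20% and 0.785% called, and 8.62% and 8.10% by unadjusted p. Psat1, an enzyme of serine synthesis, rose from a mean of 7.90 ± 1.75 CPM with AL to 19.6 ± 7.21 CPM with CR (mean ± SD, n = 4 each), with single values of 6.40, 7.18, 10.4 and 7.61 CPM in the AL libraries (replicates 1 to 4) and 16.3, 16.2, 30.4 and 15.5 CPM in the CR libraries. This was 1.31 on the log2 scale (SE 0.26, edgeR quasi-likelihood adjusted p = 0.0298). Eif4ebp1, which encodes a repressor of translation initiation controlled by mTOR, rose from 51.6, 61.2, 54.1 and 73.1 CPM to 85.6, 151, 143 and 108 CPM in replicates 1 to 4. On the log2 scale the rise was 1.02 (SE 0.21, adjusted p = 0.0335, edgeR quasi-likelihood). Psat1 and Eif4ebp1 kept their calls in 3 of the 8 fits that each left out 1 library, namely without CR replicate 1 or 4 and, for Psat1, AL replicate 3 or, for Eif4ebp1, AL replicate 4.

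Ddit4, which encodes an inhibitor of mTOR signaling that responds to stress hormones as well as to ATF4, fell from 37.4, 40.5, 32.7 and 33.8 CPM with AL to 9.83, 11.3, 14.2 and 18.4 CPM in replicates 1 to 4. All CR libraries were far below all AL libraries. The fall was -1.43 on the log2 scale (SE 0.21, edgeR quasi-likelihood adjusted p = 0.00697), and the call held in all 8 fits that left out a library. With the parotid covariate the estimates were -1.05 for Ddit4, 1.65 for Psat1 and 1.26 for Eif4ebp1, and all 3 calls were lost (adjusted p = 0.509, 0.471 and 0.480, edgeR quasi-likelihood). Asns, the asparagine synthetase gene, had a log2 fold change of 0.83 without overlap and was not called (adjusted p = 0.0656, edgeR quasi-likelihood), and Atf4 itself one of -0.42 (adjusted p = 0.293, edgeR quasi-likelihood). Asns and Atf4 were named after their values were seen.

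**Figure D5:**
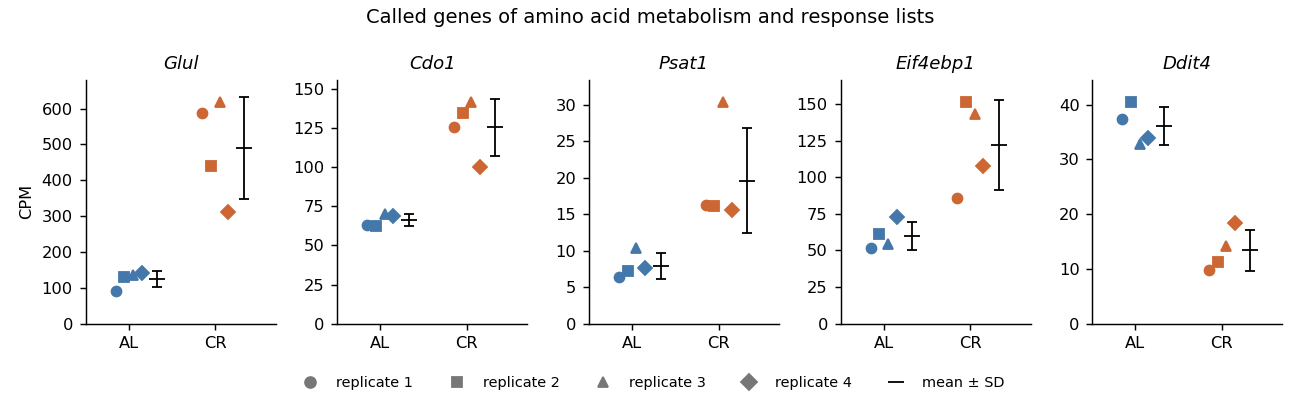
Level in each library (vertical axes, CPM from 0) of the 5 called genes from the lists of amino acid metabolism and amino acid response, for AL and CR (horizontal axes), with the shape of a point for the replicate number and the bar for mean ± SD (n = 4 each). Glul, Cdo1, Psat1 and Eif4ebp1 lie higher and Ddit4 lower in every CR library than in every AL library.

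Enzymes that make and break down amino acids were listed as well. Of 37 genes 26 were tested, with a median log2 fold change of 0.42 and 21 above 0, beside a median of 0.01 and 51.1% above 0 for all genes tested. Glul and Cdo1 were called higher, and at an unadjusted p under 0.05 there were 8 higher and 1 lower, against 8.62% and 8.10% of all genes. Glul, the glutamine synthetase gene (Gene ID 14645), rose from 92.3, 129.9, 136 and 141 CPM in AL replicates 1 to 4 to 586, 440.0, 618 and 311 CPM in CR replicates 1 to 4. The lowest CR library was above the highest AL library by a wide margin. The 3.92-fold rise, 1.97 on the log2 scale (SE 0.26, edgeR quasi-likelihood adjusted p = 0.00408), was called in each of the 8 fits that left out a library, and had an estimate of 2.18 with the parotid covariate, where the call was lost (adjusted p = 0.374, edgeR quasi-likelihood). Cdo1, which starts the conversion of cysteine to taurine, rose from 66.1 ± 3.96 to 125 ± 18.1 CPM (mean ± SD, n = 4 each), or by 0.92 on the log2 scale (SE 0.17, adjusted p = 0.0195, edgeR quasi-likelihood). Its call was lost without AL replicate 1 or 2 or CR replicate 2 or 3, and with the parotid covariate (0.84, adjusted p = 0.524, edgeR quasi-likelihood).

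Carriers of amino acids and peptides in other families and genes that sense amino acids for mTOR held no called gene. Of 20 symbols listed for other carriers, 19 were in the count table and 14 were tested. Their median was 0.07 and, at an unadjusted p under 0.05, 1 was higher and 3 were lower, where 8.62% and 8.10% of all genes were. The 4 were Slc16a10, a carrier of aromatic amino acids (log2 fold change -1.82), the lysosomal peptide carrier Slc15a3 (-1.44), the lysosomal cystine carrier Ctns (0.60), and the mitochondrial aspartate and glutamate carrier Slc25a13 (-0.72). Their adjusted p-values in edgeR's quasi-likelihood test ranged from 0.0895 to 0.209, and Slc15a3 is also known from macrophages. The next higher carrier by p was Slc25a38, the mitochondrial glycine carrier (log2 fold change 0.32, adjusted p = 0.661, edgeR quasi-likelihood). Of 32 genes of amino acid sensing 29 were tested, with a median of 0.10, and by unadjusted p below 0.05 there was 1 higher and 1 lower gene, again beside 8.62% and 8.10% of all genes. Sesn1, the gene of a sestrin, had a log2 fold change of 1.37 and its relative Sesn3 one of -0.66 (adjusted p = 0.0917 and 0.235, edgeR quasi-likelihood). Next by p in each direction were Kptn at 0.73 and Wdr59 at -0.61, which encode subunits of the KICSTOR and GATOR complexes upstream of mTOR (adjusted p = 0.476 and 0.350, edgeR quasi-likelihood).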

How the data were processed

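RNA of LGs from 4 AL and 4 CR mice was sequenced from the 3' end as single reads. The authors deposited whole-number read counts per gene, made on the ROSALIND platform by trimming with cutadapt, aligning to mm10 with STAR and counting with HTSeq, whose strand setting and versions are not given in the sources used here. The authors also deposited log2 values made from these counts with DESeq2's RLE size factors. They differed from the recomputed values by at most 1.2e-04 and were not used further.

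After 5 repeated symbols were dropped, 24552 genes remained. The diets were tested against each other with edgeR 4.0.16 in R 4.3.3, using RLE factors and the quasi-likelihood fit, over the 11211 genes that filterByExpr kept, and p-values were adjusted over all of these by Benjamini-Hochberg. An SE was derived from the estimate and the root of its F statistic. A call needs an adjusted p under 0.05 and a fold of at least 1.5. The biological coefficient of variation was 34.7%. The study's text gives 4 mice for each diet, and the labels only number the samples, so p-values measure the spread between these samples. Floors cover counting error only, as no molecular identifiers are named in the sources used here. On simulated data with 11045 genes, of which 99 differed by 1 and 100 by 2 on the log2 scale, it called 18 and 91 of them and 7 unchanged genes.

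Members, lists and tests were chosen with earlier results of these data known. Named were members that were called, had an unadjusted p under 0.05, did not overlap, were among the 10 with the highest mean CPM, are heterodimer chains or are ATF4-linked, and called genes of the pathway lists, or else the 2 with the smallest p in each direction. Slc25a13, Asns, Atf4 and the remaining tested members (Slc36a4, Slc38a6, Slc38a9, Slc43a3, Slc6a14, Slc6a2, Slc6a8 and Slc7a6os) lie outside this rule and were given to account for every tested member or after their values were seen. Positions and exon overlaps are from GENCODE vM21. As alternatives, other scaling (TMM, upper-quartile), DESeq2 1.42.0, limma 3.58.1 (voom with quality weights), other filters, no fold threshold, a replicate block, the parotid covariate (mean log2(CPM + 1) of 6 genes) and leaving out each library were run.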

Additional observations from a re-analysis of the deposited data

Results flagged for a closer look

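Slc43a2, the relative of the called member Slc43a1, had 39.0 CPM in AL replicate 1, set apart from the other AL libraries at 31.7, 32.7 and 31.8 CPM. Its gap to the nearest of them was 0.854 of the range of the group, above Dixon's critical value for 4 samples. It was the only such value in 42 groups of 4 libraries (21 named members in each diet), and chance gives about 1 in 20. Without this library the log2 fold change of Slc43a2 stayed below 0 and was not called.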

How the results depend on the processing

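The 2 members called higher were 1 with upper-quartile factors (Slc7a2), 1 with limma voom (Slc43a1) and 0 with the parotid covariate, and ranged from 0 to 3 when 1 library was left out. The members called lower, 0 with all libraries, were 1 with DESeq2 and 1 with the replicate block (Slc7a6 in both), and ranged from 0 to 1 when 1 library was left out. The replicate numbers were not taken to pair the libraries, since the labels give no shared litter or day and the correlations of same-numbered deviations from the group means, 0.15, 0.08, 0.24 and 0.46, were all positive but not all above 0.1. AL replicates 1, 2 and 4 correlated best with their own number in CR and AL replicate 3 with CR replicate 1, a hint from the data and not from the design. With the replicate block the members called higher were 3, Slc7a5 being added (log2 fold change 1.32, adjusted p = 0.0221, edgeR quasi-likelihood). The block raised the calls over all genes from 134 higher and 88 lower to 388 and 312. DESeq2 gave 387 and 317, limma voom 237 and 160, no filter 271 and 165, and the covariate 4 and 0. Without CR replicate 4 there were 453 and 247, and without another library between 35 and 91 higher and between 25 and 75 lower. The cause of these shifts was not tested. Among its limits, the paper names 1 CR sample of intermediate pattern in a heatmap as a possible outlier. Its text does not say which replicate this was. Over 333 alternative values of 21 named members the call stayed in 310, was lost in 18 and gained in 5, and the sign changed in 12, 6 of these with the covariate. No member was called with the covariate, and the log2 estimates not given in the report were -1.15 for Slc1a3, 0.48 for Slc1a5, 1.67 for Slc38a1, 0.36 for Slc38a10, -0.71 for Slc38a7, -0.76 for Slc43a2, 0.65 for Slc6a9, 0.91 for Slc7a1, 0.51 for Slc7a11, -0.77 for Slc7a6, -1.001 for Slc7a7 and 0.79 for Slc7a8. Slc7a2 and Slc43a1, each with as few as 11 reads in a library, and Slc7a7 and Slc7a8, with as few as 0 and 3, rest on low counts in some libraries. The part of depth in the spread of their values was not tested.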

Other observations

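Of the 37 members too rarely counted for the test, 16 had no reads in any library, 11 had at most 3 in each library, and 10 had more than 3 reads in at least 1 library, with a highest level of 1.56 CPM. That level was of Slc36a2, a proton-coupled carrier of glycine and proline known from brown fat and kidney, in CR replicate 1. Its other libraries held between 0 and 0.729 CPM. Slc7a10, a light chain for small neutral amino acids known from white fat and glia, had 0.0770, 0, 0 and 0.254 CPM in the AL libraries (replicates 1 to 4) and 0.424, 0.355, 0.372 and 0 CPM in the CR libraries, while the white adipose genes summed to between 25.2 and 103 CPM in CR and between 9.55 and 20.2 CPM in AL, and the nerve and glia genes to between 29.2 and 93.9 CPM in CR and between 15.0 and 20.7 CPM in AL. Slc1a1, a glutamate carrier of epithelia, had the most reads of these genes, 67 over all libraries, and lay between 0.254 and 0.925 CPM in AL and between 0 and 0.637 CPM in CR. Levels this close to the floor of 3 counts carry little precision, and the diets overlapped for all of these genes.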
